A study of Mus musculus with 7 samples.

Results

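The extracellular matrix of the skin holds, beside collagen, a set of secreted glycoproteins that bind both matrix and cells. The genes examined were those of fibronectin (Fn1), tenascin-C (Tnc), tenascin-X (Tnxb), periostin (Postn), SPARC (Sparc), its relative hevin (Sparcl1), osteopontin (Spp1) and the thrombospondins Thbs1, Thbs2 and Thbs4. They were listed by gene symbol, with earlier results of these data known, and all 10 were found among the 55450 genes of the deposited count table and passed the filter on low counts. Dorsal skin of 7 male C57BL/6 mice aged 24 months was sequenced in bulk as polyA RNA, with 1 library per mouse. 4 mice (numbers 480 to 483) received DMSO alone and 3 mice (numbers 476 to 478) received 5 μM ABT-263 in DMSO, in both groups topically for 5 days under a semi-occlusive dressing after removal of the hair. ABT-263 (navitoclax) blocks survival proteins of the BCL-2 family and is used to eliminate senescent cells, and the comparison asks what it changes in aged skin before a wound is made.

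Matricellular proteins are secreted into the matrix but serve mainly as signals to cells, through integrins, syndecans and scavenger receptors, rather than as structural fibers. Several of them, among them tenascin-C, periostin and thrombospondin-1, are low in resting adult skin and are produced in granulation tissue, whereas tenascin-X belongs to the stable dermis. Fibronectin differs in that it forms fibrils, and it provides the provisional matrix on which cells migrate into a wound.

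Counts were scaled to CPM (counts per megacount of the scaled library) with edgeR's TMM method. Every ABT-263 library (27325963 to 43562330 counts) was larger than every DMSO library (20344364 to 26824123 counts). Keratinocyte markers summed to 17810.0 to 50340.0 CPM over the mice and skeletal muscle markers to 16170.0 to 49570.0 CPM. Of the 17959 genes tested with edgeR's quasi-likelihood method, 24.2% passed a Benjamini-Hochberg threshold of 0.05, with 12.4% higher and 11.7% lower in the ABT-263 group. In a bulk sample, fewer cells of a type and less RNA per cell cannot be told apart.

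The start regions of Tnc, Postn, Spp1 and Thbs2 are shown because these 4 genes rose and their windows hold at least 1 of the motifs searched. Each line gives the 250 bases before the RefSeq start on the strand of the gene, in build GRCm38.p6, at chr4:64047016-64047265 for Tnc (minus strand), chr3:54360857-54361106 for Postn (plus strand), chr5:104434861-104435110 for Spp1 (plus strand) and chr17:14694263-14694512 for Thbs2 (minus strand). Capitals mark matches, on either strand, to the TATA box (searched as TATAAA), the CCAAT box, the RUNX motif (searched as TGTGGT), the AP-1 motif (searched as TGANTCA) or the NF-kB and CArG motifs.
Tnc: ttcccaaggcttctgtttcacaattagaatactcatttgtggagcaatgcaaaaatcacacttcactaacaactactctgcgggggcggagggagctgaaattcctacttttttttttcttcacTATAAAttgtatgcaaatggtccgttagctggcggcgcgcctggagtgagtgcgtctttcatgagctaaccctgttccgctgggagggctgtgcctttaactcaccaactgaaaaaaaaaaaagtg
Postn: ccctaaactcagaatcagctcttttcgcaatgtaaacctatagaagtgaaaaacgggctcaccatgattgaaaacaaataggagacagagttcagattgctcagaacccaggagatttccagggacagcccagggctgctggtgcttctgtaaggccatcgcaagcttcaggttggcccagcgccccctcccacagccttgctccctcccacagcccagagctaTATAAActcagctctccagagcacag
Spp1: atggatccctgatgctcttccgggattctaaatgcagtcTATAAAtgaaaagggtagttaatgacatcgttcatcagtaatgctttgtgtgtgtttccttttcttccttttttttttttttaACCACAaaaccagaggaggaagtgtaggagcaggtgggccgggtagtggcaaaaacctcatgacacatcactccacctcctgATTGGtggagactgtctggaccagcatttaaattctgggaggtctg
Thbs2: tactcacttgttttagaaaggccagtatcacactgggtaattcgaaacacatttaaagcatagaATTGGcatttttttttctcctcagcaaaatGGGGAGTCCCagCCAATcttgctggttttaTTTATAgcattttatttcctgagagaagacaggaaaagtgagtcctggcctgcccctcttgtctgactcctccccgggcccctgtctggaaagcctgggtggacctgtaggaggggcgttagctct
The table of start regions held 7 of the 10 genes, and Fn1, Sparcl1 and Thbs1 were not among them. The window of Sparc, which also rose, held 0 matches and is not shown, since it lies 3103 bases from the 5′ end of the gene in GENCODE and overlaps an exon of Sparc. Those of Tnxb and Thbs4, which were not called, are not shown either. TATAAA was found in 4 of the 7 windows, those of the 4 genes shown, and in 12.4% of the 32851 windows of the same length in the table. It began 26 bases before the start in Postn, 126 in Tnc and 211 in Spp1, and in Thbs2 it lay on the opposite strand. Spp1 also held a match to TGTGGT (14.0% of all windows) and one to CCAAT (33.8%), and Thbs2 held a pair of CCAAT matches and an NF-kB match (7.25% of all windows) that reads on both strands. The AP-1 motif (6.75% of all windows) was found in 1 window, that of Tnxb, and the CArG motif (1.47%) in 0. These matches are descriptions of letters in a window, and no binding was measured.

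Of the 10 genes, 8 passed this threshold with higher levels after ABT-263 and 0 with lower levels, against 12.4% of all genes tested higher and 11.7% lower. All 10 log2 fold changes were positive, with a median of 1.18, and the median over all genes tested was 0.00223. The 3 ABT-263-treated mice lay above the 4 DMSO-treated mice without overlap for 7 genes, a pattern that 18.7% of all genes tested showed in this direction and 18.4% in the other (37.1% in all). The calls were close to the threshold: with 1 mouse left out they numbered 2 without DMSO-treated mouse 480, 1 without 481, 0 without 482 and 4 without 483, and 4, 5 and 2 without ABT-263-treated mice 476, 477 and 478. Over all genes, 4342 of 17959 passed with every mouse, and 4169, 2837, 1824 and 2063 passed without DMSO-treated mice 480 to 483. Without ABT-263-treated mice 476, 477 and 478 these totals were 2228, 4026 and 1735. Each of these 7 fits tested between 17665 and 18657 genes. When each of the 30645 genes with any count was tested, 3388 of them passed. In that fit 3 calls held (Sparc, Sparcl1 and Thbs2), and the adjusted p was 0.0511 for Postn, 0.0722 for Fn1, 0.0979 for Thbs1, 0.130 for Spp1 and 0.151 for Tnc. The directions of the 10 genes were kept in these fits, except that of Tnxb without mouse 478. Leaving out 1 mouse also shrinks a group, and that part of the loss was not separated.

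**Figure D1:**
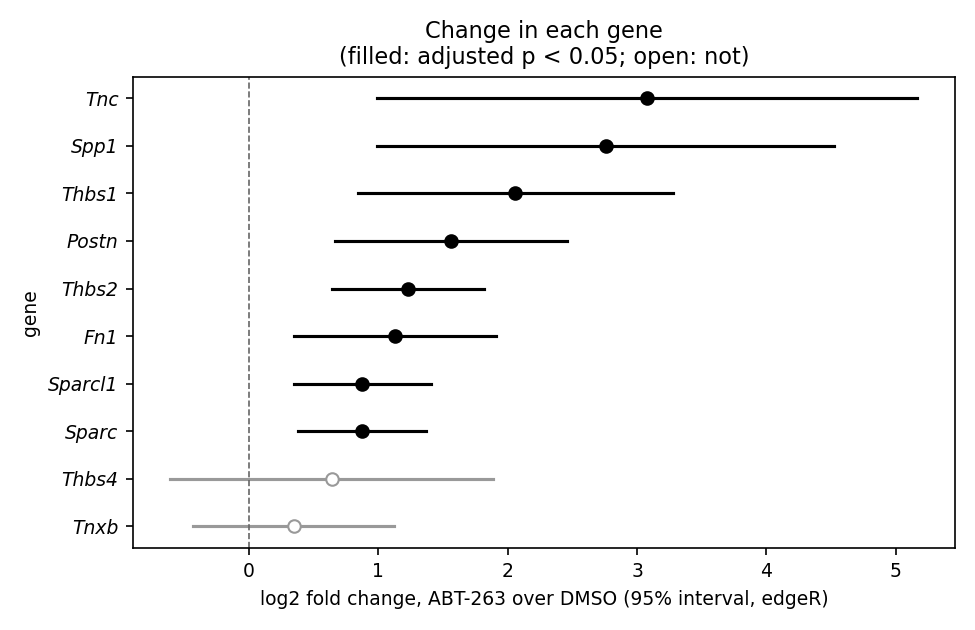
Log2 fold change of each gene, ABT-263 over DMSO, with its 95% interval from edgeR's quasi-likelihood fit of 7 mice. The intervals of 8 genes lie above 0, from Tnc at 3.08 to Sparc at 0.87, and those of Thbs4 and Tnxb cross 0.

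Levels per exon length were compared between genes as CPM per kilobase (kb) of annotated exon. Sparc, which encodes a collagen-binding protein of fibroblasts, was by far the most abundant, at 323 ± 56.9 CPM per kb (SD, n = 4) after DMSO, and made up 78.1% of the summed level of the 10 genes. Sparcl1 followed at 21.0 ± 4.01, Tnxb at 16.9 ± 4.54 and Postn at 14.9 ± 4.41 CPM per kb (SD, n = 4), each overlapping its neighbor in the range over mice. Fn1 (9.63 ± 1.32), Tnc (7.50 ± 6.16), Thbs2 (7.16 ± 2.12) and Thbs4 (6.48 ± 4.59) came next in CPM per kb (SD, n = 4), again with overlapping neighbors, and Spp1 (4.52 ± 3.56) and Thbs1 (3.05 ± 1.34) were lowest. After ABT-263 the order of the means was Sparc (592 ± 87.7), Tnc (63.4 ± 70.4), Postn (44.2 ± 25.6), Sparcl1 (38.6 ± 12.3), Spp1 (30.6 ± 24.9), Tnxb (21.5 ± 10.7), Fn1 (21.1 ± 11.98), Thbs2 (16.8 ± 3.18), Thbs1 (12.7 ± 9.95) and Thbs4 (10.1 ± 3.59), in CPM per kb (SD, n = 3). Neighbors below Sparc overlapped in this group too. The share of Sparc in the summed level was 69.8% ± 6.57 after ABT-263 (SD, n = 3), and that of Tnc went from 1.68% ± 1.19 (SD, n = 4) to 7.31% ± 7.79 (SD, n = 3).

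**Figure D2:**
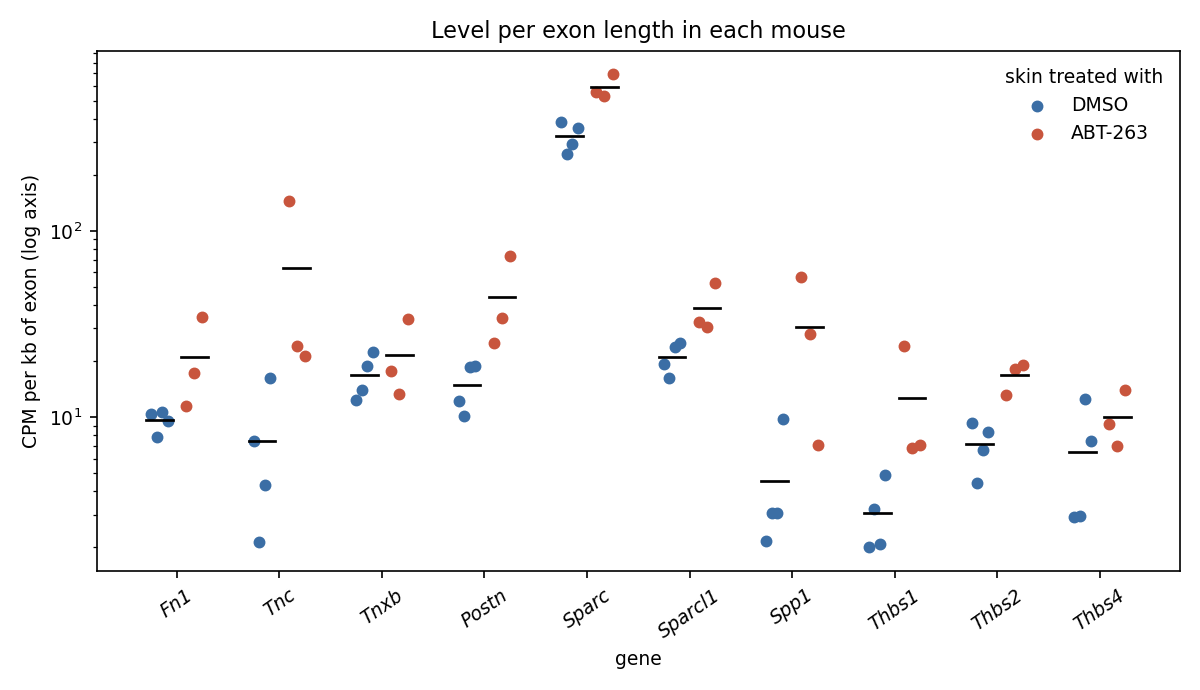
Level of each gene in each mouse, in CPM per kb of exon on a log axis, with a bar at the mean of the 4 DMSO (blue) or 3 ABT-263 (red) mice. Sparc lies above the other genes in every mouse, and the ABT-263 points of Spp1, Tnxb and Thbs4 overlap the DMSO points.

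Fibronectin, the substrate of migrating cells bound by integrin α5β1, lies on chromosome 1 from 71585520 to 71653200 (GRCm38, minus strand). Fn1 was at 122, 91.1, 125 and 112 CPM in DMSO-treated mice 480 to 483 and at 134, 202 and 403 CPM in ABT-263-treated mice 476, 477 and 478. The groups did not overlap, but mouse 476 lay just above the DMSO range and mouse 478 far above it. The log2 fold change was 1.13 (SE 0.34, edgeR adjusted p = 0.0452). It stayed past the threshold only without mouse 476 (1.43, adjusted p = 0.0205), and in the other 6 fits that drop a mouse the adjusted p lay between 0.0546 and 0.112, with a log2 fold change of 0.58 without mouse 478. It was also lost among protein-coding genes alone (adjusted p = 0.0527) and with limma on the deposited log2 values (adjusted p = 0.0602). The count sums all splice forms, so the forms with the extra domains known from wounds were not told apart.

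Tenascin-C, a large glycoprotein that weakens the attachment of cells to fibronectin, is encoded on chromosome 4 from 63959785 to 64047015 (minus strand). Tnc was at 57.6, 16.6, 33.5 and 125.5 CPM after DMSO and at 1124, 188 and 165 CPM after ABT-263. All ABT-263-treated mice were above all DMSO-treated mice, but mouse 476 stood at 6.81 times the lowest of its group, and the DMSO-treated mice themselves spanned 7.56-fold. Tnc had the largest log2 fold change of the 10 genes, 3.08 (SE 0.90, edgeR adjusted p = 0.0440). Without mouse 476 it was 1.605 (adjusted p = 0.221), and with 1 mouse left out it passed only without DMSO-treated mouse 483 (adjusted p = 0.0474), with adjusted p-values from 0.0525 to 0.221 in the other 6 fits. No adjusted p was returned for this gene by the DESeq2 Wald test, the type of test the authors used. In the annotation, 2.26% of its exon bases face an antisense gene, and the counting used strand.

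Tenascin-X, whose loss in humans gives a form of Ehlers-Danlos syndrome, is encoded on chromosome 17 from 34670535 to 34719815 (plus strand). Tnxb was at 152, 172, 229 and 274 CPM after DMSO and at 215, 163 and 411 CPM after ABT-263. The groups overlapped, with mouse 477 inside the lower part of the DMSO range and mouse 478 above it. With a log2 fold change of 0.35 (95% interval from -0.43 to 1.13, edgeR adjusted p = 0.475), Tnxb was not called. The value became -0.12 without mouse 478 (adjusted p = 0.791) and 0.71 once the dependence on exon length and GC was removed (adjusted p = 0.151), in neither case past the threshold. Within each library, the log2 ratio of Tnc to Tnxb counts went from -2.17 ± 1.08 (SD, n = 4) to 0.43 ± 1.86 (SD, n = 3). That difference of 2.59 did not pass the exact permutation test over mice (two-sided, p = 0.0571, adjusted p = 0.228 over 4 ratios). With 4 against 3 mice, the smallest unadjusted p possible in this test is 0.0286. A ratio that reached it alone would still not pass after adjustment over the 4 ratios. The adjusted result therefore cannot decide whether this ratio changed.

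Periostin, which promotes collagen cross-linking by recruiting BMP-1 to the matrix, is encoded on chromosome 3 from 54361109 to 54391037 (plus strand). Postn was at 106, 88.8, 162 and 163 CPM after DMSO and at 219, 297.5 and 637 CPM after ABT-263. Every ABT-263-treated mouse was above every DMSO-treated mouse, with mouse 478 at 2.91 times mouse 476. Postn rose by a log2 fold change of 1.56 (SE 0.39, edgeR adjusted p = 0.0268). The call held without mouse 476 (adjusted p = 0.0229) or mouse 477 (adjusted p = 0.0328), and in the other 5 fits with a mouse left out the adjusted p lay between 0.0526 and 0.0684, with the smallest change (0.995) without mouse 478.

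Sparc lies on chromosome 11 from 55394500 to 55423183 (minus strand) and Sparcl1, a relative that is abundant in vessel walls, on chromosome 5 from 104079111 to 104113733 (minus strand). Sparc was at 1448, 982, 1109 and 1355 CPM after DMSO and at 2099, 2004 and 2621 CPM after ABT-263. Sparcl1 was at 56.6, 47.6, 69.5 and 73.1 CPM after DMSO and at 95.8, 89.4 and 155 CPM after ABT-263. For both genes the groups were apart, and mouse 478 was the highest. Sparc had a log2 fold change of 0.87 (SE 0.22, edgeR adjusted p = 0.0255) and Sparcl1 one of 0.88 (SE 0.23, adjusted p = 0.0306). The log2 ratio of Sparc to Sparcl1 counts was 4.31 ± 0.29 (SD, n = 4) after DMSO and 4.34 ± 0.22 (SD, n = 3) after ABT-263, a difference of 0.0278 (exact permutation test, two-sided, p = 0.914, adjusted p = 0.914). With 1 mouse left out, the Sparc call held without DMSO-treated mouse 480 (adjusted p = 0.0226) and without mouse 477 (adjusted p = 0.0334), with 0.0548 to 0.0812 in the other 5 fits. The Sparcl1 call held without mouse 476 (adjusted p = 0.0420) and mouse 477 (adjusted p = 0.0243), with 0.0528 to 0.0910 in the other 5.

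Osteopontin, a phosphoprotein made by activated macrophages and many other cells and bound by integrin αv and by CD44, is encoded on chromosome 5 from 104435118 to 104441050 (plus strand). Spp1 was at 3.56, 5.01, 5.03 and 16.2 CPM after DMSO and at 93.4, 46.3 and 11.7 CPM after ABT-263. Mice 476 and 477 were far above the DMSO-treated mice, whereas mouse 478 lay below DMSO-treated mouse 483, so the groups overlapped. Spp1 rose by 2.76 on the log2 scale (SE 0.76, edgeR adjusted p = 0.0371). It passed without mouse 478 (3.23, adjusted p = 0.0347) and without mouse 483 (3.47, adjusted p = 0.0358), and in the other 5 fits the adjusted p lay between 0.0741 and 0.158, with 1.97 on the log2 scale without mouse 476. In the annotation 18.8% of its exon bases are also those of Gm42793, a gene on the same strand, so reads from there could not be assigned to either gene with certainty.

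Thbs1 encodes thrombospondin-1, which inhibits angiogenesis, binds CD36 and CD47 and can activate latent TGF-β, on chromosome 2 from 118111876 to 118127133 (plus strand). Thbs1 was at 12.1, 19.4, 12.7 and 29.7 CPM after DMSO and at 147, 41.6 and 43.2 CPM after ABT-263. The groups were apart, with mouse 476 at 3.54 times mouse 477. The log2 fold change was 2.06 (SE 0.52, edgeR adjusted p = 0.0297). It was 1.202 without mouse 476 (adjusted p = 0.0662), and the call was also lost without DMSO-treated mice 480, 481 and 482 (adjusted p up to 0.0753) and held in the other 3 fits with a mouse left out.

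Thbs2, on chromosome 17 from 14665500 to 14694235 (minus strand), encodes a second inhibitor of angiogenesis that is made by fibroblasts and affects the assembly of collagen fibrils. It was at 64.8, 31.0, 46.5 and 58.3 CPM after DMSO and at 92.1, 127 and 133.5 CPM after ABT-263, again without overlap. The ABT-263-treated mice spanned 1.45-fold, against 2.09-fold for the DMSO-treated mice. Its log2 fold change of 1.229 (SE 0.25, edgeR adjusted p = 0.0153) had the smallest p of the 10 genes. The call was lost without DMSO-treated mouse 482 (adjusted p = 0.0502) and without mouse 478 (adjusted p = 0.0547) and held in the other 5 fits with a mouse left out, in which the adjusted p was as low as 0.0148.

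Thbs4, on chromosome 13 from 92751590 to 92794818 (minus strand), encodes a pentameric thrombospondin of tendon and muscle. It was at 9.57, 9.73, 41.3 and 24.6 CPM after DMSO and at 30.1, 23.2 and 46.2 CPM after ABT-263. The groups overlapped, with DMSO-treated mice 482 and 483 among the ABT-263 values. With a log2 fold change of 0.64 (95% interval from -0.61 to 1.89, edgeR adjusted p = 0.409), Thbs4 was not called, and the value without mouse 482 was 1.18 (adjusted p = 0.116). Of 4 tendon markers, 1 was lower and 0 higher, namely Scx (log2 fold change -1.42, edgeR adjusted p = 0.0437), whose groups overlapped, whereas Tnmd (0.19), Mkx (-0.26) and Fmod (-0.35) did not pass. Of 5 skeletal muscle markers, 2 were lower and 0 higher, among them Tnnt3 (-1.16, adjusted p = 0.0319). The shares over all genes tested were 11.7% lower and 12.4% higher. The part of these tissues in the values of Thbs4 was not tested.

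The differences within the thrombospondin family were tested as ratios within each library. The log2 ratio of Thbs1 to Thbs2 counts was -1.48 ± 0.80 (SD, n = 4) after DMSO and -0.86 ± 1.33 (SD, n = 3) after ABT-263 (exact permutation test, two-sided, p = 0.486, adjusted p = 0.8). It was 0.67 in mouse 476, where Thbs1 counts exceeded those of Thbs2, and -1.61 and -1.63 in mice 477 and 478. The log2 ratio of Thbs2 to Thbs4 counts was 1.46 ± 1.07 (SD, n = 4) and 1.87 ± 0.51 (SD, n = 3), respectively (exact permutation test, two-sided, p = 0.6, adjusted p = 0.8). Neither ratio differed beyond the spread between mice, which does not show that the family members responded alike.

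The 3 ABT-263-treated mice did not rank alike across the genes. Mouse 476 had the highest level of Tnc, Spp1 and Thbs1, whereas mouse 478 had the highest level of the remaining 7 genes, and mouse 477 of 0. On the log2 scale relative to the DMSO mean, Tnc, Spp1 and Thbs1 stood at 4.27, 3.65 and 2.99 in mouse 476 and at 1.503, 0.65 and 1.22 in mouse 478. Fn1 and Postn stood at 0.25 and 0.75 in mouse 476 and at 1.84 and 2.29 in mouse 478. These are descriptions of single mice, and no test separates them.

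**Figure D3:**
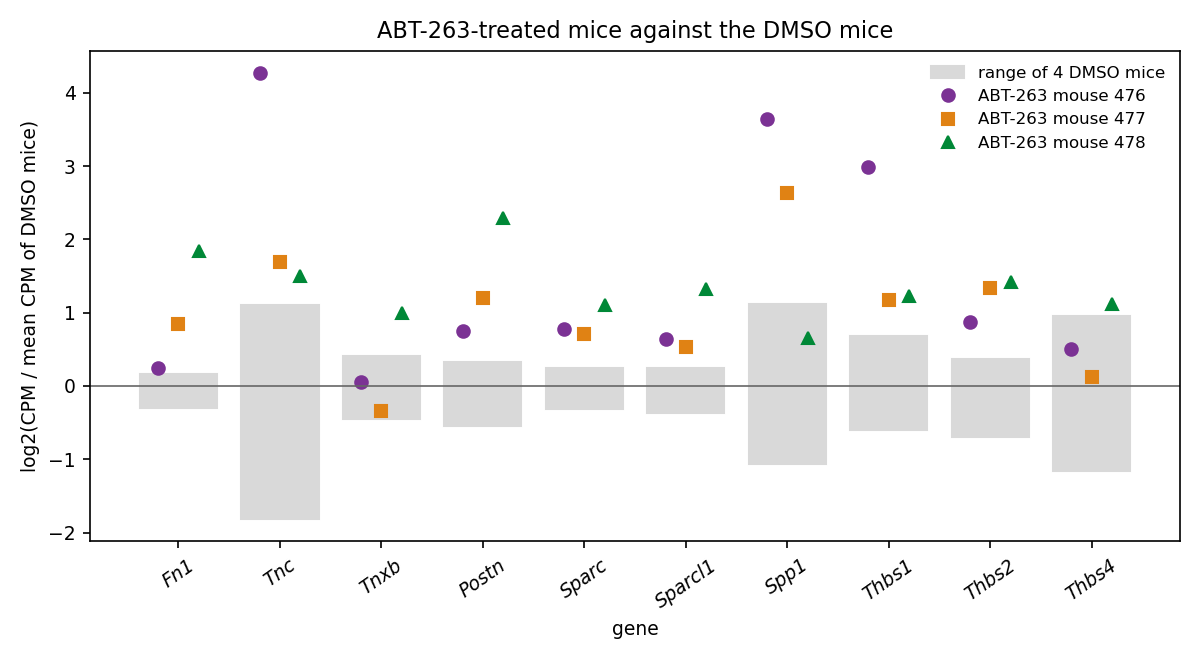
Level of each gene in ABT-263-treated mice 476 (circles), 477 (squares) and 478 (triangles) as log2 of the ratio to the mean of the DMSO-treated mice, whose range is the gray box. Mouse 476 is highest for Tnc, Spp1 and Thbs1, and mouse 478 for the other 7 genes.

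Markers of cell types also differed between the groups, and over all genes tested 12.4% were called higher and 11.7% lower. Of 7 macrophage markers, 5 (Adgre1, Csf1r, Cd68, Mrc1 and Lyz2) passed as higher and 0 as lower, with a summed level of 369 to 1093 CPM after DMSO and 1228 to 3900 CPM after ABT-263, highest in mouse 476. Of 5 neutrophil markers, 3 (S100a8, Csf3r and Retnlg) were higher and 0 lower, with sums of 99.6 to 1820 CPM and 5097 to 8304 CPM, again highest in mouse 476. Most of these sums was S100a8 and S100a9. In mice 476, 477 and 478, Csf3r was at 78.0, 12.4 and 10.7 CPM and Retnlg at 232, 2.09 and 3.03 CPM. With the DESeq2 Wald test 2 of the 5 passed as higher. Of 6 fibroblast markers, 3 (Pdgfra, Col1a2 and Lum) were higher and 0 lower (3798 to 5304 CPM and 6004 to 8569 CPM), with the sum highest in mouse 478. Most of that sum was Col1a1 and Col1a2. Col1a1, Col1a2, Lum and Dpt were highest in mouse 478, but Pdgfra and Dcn were highest in mouse 476. Of 5 endothelial markers 5 (Pecam1, Cdh5, Kdr, Vwf and Tie1) were higher (144 to 333 CPM and 478 to 612 CPM). Among the most abundant of these, Lyz2 rose by 2.43 (adjusted p = 0.0210), S100a8 by 2.98 (adjusted p = 0.0208) Col1a2 by 0.83 (adjusted p = 0.0410), Pecam1 by 1.03 (adjusted p = 0.0280) and Tie1 by 0.88 (adjusted p = 0.0487) on the log2 scale. Other abundant markers that did not pass were C1qa (0.75, adjusted p = 0.280), S100a9 (2.56, adjusted p = 0.0772) and Col1a1 (0.47, adjusted p = 0.196). None of the markers in these 4 lists was at 0 in all mice, and their part in the changes above was not tested.

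Genes nearest in pattern to each member were sought among 11469 protein-coding genes with a mean of at least 5 CPM, by the root mean square difference of log2 values over the 7 mice, centered on the DMSO mean. That mean was taken over all 7 mice, so a gene low after DMSO could enter through the ABT-263 group alone. Il19, Ccr1, Tnf and Isg20, named below, were under 5 CPM in every DMSO-treated mouse and entered in this way. Pamr1, Gm5538 and Slc10a3, also named below, averaged under 5 CPM over the DMSO-treated mice and entered in this way too. Nearest to Tnc were the cytokine Il19 (difference 0.413) and the chemokine receptor Ccr1 (0.498), both highest in mouse 476. Nearest to Spp1 were Tnf (0.544) and the histidine decarboxylase Hdc (0.602), and nearest to Thbs1 the interferon-induced genes Isg20 (0.262) and Ifi202b (0.281). The fibrillar collagen Col5a1 (0.147) was nearest to Thbs2, Pamr1 (0.183) to Postn, Srpx (0.0857) to Sparc and Lrrn4cl (0.211) to Fn1. Ehbp1 (0.115) and the fibroblast protease Fap (0.116) were nearest to Sparcl1, Ecm2 (0.149) to Tnxb and the cartilage matrix gene Cilp (0.352) to Thbs4. Between members, Sparc and Sparcl1 were the closest pair (0.223) and Tnc and Tnxb the farthest apart (2.08). Among the second nearest genes were Adam23 for Fn1 (0.216), Gm5538 for Postn (0.245), Slc10a3 for Sparc (0.0891), Pdss1 for Thbs2 (0.15) and C1qtnf3 for Thbs4 (0.359). These distances describe 7 libraries in which treatment and depth differ together.

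Of 20 further matricellular genes, 15 were kept by the filter on low counts, and 2 of them passed as higher and 0 as lower, against 12.4% and 11.7% of all genes tested, so the share called higher was near that of all genes. Over these 15 genes the median log2 fold change was 0.62. Ccn5, a growth-suppressing member of the CCN family, averaged 15.2 ± 4.02 CPM after DMSO (SD, n = 4) and 65.1 ± 28.8 CPM after ABT-263 (SD, n = 3), a rise that is 2.10 on the log2 scale (SE 0.34, edgeR adjusted p = 0.00892). Comp, a thrombospondin of cartilage and dermis, averaged 1.99 ± 0.15 and 3.70 ± 0.97 CPM (SD, n = 4 and n = 3), a rise that is 0.90 on the log2 scale (edgeR adjusted p = 0.0406). The other CCN genes tested did not pass, with log2 fold changes from -0.02 for Ccn2, a target of TGF-β and YAP, to 1.52 for Ccn3 (adjusted p = 0.0567). With the DESeq2 Wald test 6 passed, 5 higher (Ccn3, Ccn5, Thbs3, Comp and Tgfbi) and 1 lower (Spock1).

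Of 16 receptors and partners of these proteins, all tested, 3 were higher and 0 lower, against 12.4% and 11.7% of all genes tested, with a median log2 fold change of 0.57. Itgb1, the β1 integrin chain shared by fibronectin and tenascin receptors, averaged 155 ± 12.4 CPM after DMSO (SD, n = 4) and 318 ± 78.0 CPM after ABT-263 (SD, n = 3), a rise that is 1.04 on the log2 scale (SE 0.18, edgeR adjusted p = 0.00921). Lrp1, which takes up thrombospondins from the cell surface, rose by 1.05 (adjusted p = 0.0222) and Itga9, a receptor chain for tenascin-C and osteopontin, by 0.67 (adjusted p = 0.0404) on the log2 scale. Among the receptor genes that did not pass, the log2 fold change ran from -0.48 for Sdc4 to 0.99 for Itgb3. It was 0.94 for Itga5 and 0.82 for Stab1, both with groups apart, 0.86 for Cd36, 0.23 for Cd44 and 0.26 for Cd47. Of the 16 log2 fold changes, 14 were positive and 2 negative. The count of receptor genes called fell to 1 when mouse 482 (DMSO) or mouse 478 (ABT-263) was dropped. Without mouse 476 (ABT-263), 1 passed as higher and 1 as lower.

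Of 15 genes of activated fibroblasts and of the TGF-β response, 4 were higher and 0 lower, against 12.4% and 11.7% of all genes tested, with a median log2 fold change of 0.84. These were Cthrc1 (2.23 on the log2 scale, adjusted p = 0.0128), the membrane metalloprotease Adam12 (1.99, adjusted p = 0.00980), the cross-linking enzyme Lox (1.64, adjusted p = 0.0111) and Skil (1.00, adjusted p = 0.0271), a repressor of SMAD signaling, all from edgeR. No call was made for the myofibroblast genes Acta2 (0.18 on the log2 scale) and Tagln (-0.01) or for the TGF-β ligands Tgfb1 (0.44), Tgfb2 (-0.42) and Tgfb3 (-0.09).

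**Figure D4:**
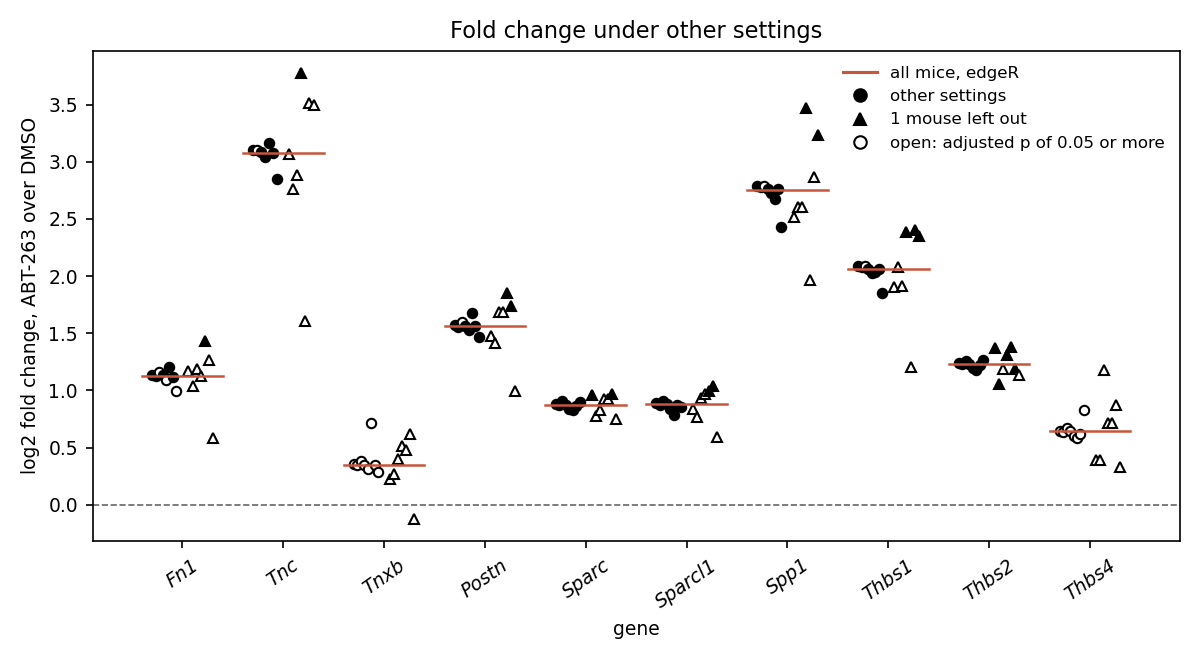
Log2 fold change of each gene, ABT-263 over DMSO, in the edgeR fit of all mice (red line), under other settings (circles) and in the 7 fits that drop a single mouse (triangles), with open symbols where the adjusted p is 0.05 or more. Most triangles of the 8 genes that passed are open, and 1 triangle, of Tnxb without mouse 478, lies below 0.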

How the data were processed

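PolyA RNA of dorsal skin was sequenced from 4 DMSO- and 3 ABT-263-treated mice. The authors aligned reads to mm10 with STAR 2.7.9a and used featureCounts (Subread 1.6.2) to count, by strand, unique proper pairs for each non-mitochondrial Ensembl gene. The deposited counts are not normalized. There is also a second table of log2-like values after variance stabilization, which the authors made with DESeq2 1.23.10.

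GENCODE M21 (GRCm38) supplied symbols, positions and exon lengths for 55190 of 55450 identifiers, and is an older release than the annotation the authors cite. Counts were tested with edgeR 4.0.16 in R 4.3.3 (TMM, filterByExpr, robust quasi-likelihood, two-sided, Benjamini-Hochberg over 17959 genes). Standard errors are the log2 fold change divided by the square root of F. Ratios used counts plus 0.5, and pattern distances log2 of CPM plus 0.5. The fit was also run on simulated data, and that run is not used as support for any result here. The labels name no batch and give no pairing. Each numbered library was taken as 1 mouse.

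The members and lists were chosen with earlier results of these data known. Named genes are the 10 members, up to 4 genes per list and direction that passed with groups apart, the 2 most abundant genes of each marker list and the 2 nearest genes to each member. Other genes of the lists that did not pass were picked for mention with their values known. Some genes that this rule names are not reported here. Alternatives: the Wald test of DESeq2 1.42.0, its size factors, testing all genes with any count, a minimum of 10 counts per library, restriction to protein-coding genes, removal of trends with length and GC (mgcv 1.9.3), counts thinned to 20344364 per library, limma 3.58.1 on the deposited log2 values, and each mouse left out.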

Additional observations from a re-analysis of the deposited data

Results flagged for a closer look

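Among the 4 DMSO-treated mice, Dixon's ratio was computed for 28 measures (genes, summed lists and ratios) to find a mouse that stood apart, and 1 value passed its critical value. About 1.4 would do so by chance. Spp1 was at 16.2 CPM in mouse 483 and at 3.56 to 5.03 CPM in the other 3 (ratio 0.884). Without mouse 483 the log2 fold change of Spp1 was 3.47, against 2.76 with all mice, and the ABT-263-treated mice then lay above every DMSO-treated mouse.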

How the results depend on the processing

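The count of 8 genes past the threshold was 7 or 8 under 7 of the 8 other settings and 3 (Sparc, Sparcl1 and Thbs2) when genes with any count at all were kept. With each mouse left out it lay between 0 and 5. The DESeq2 Wald test returned no adjusted p for Tnc, so its 7 calls were among 9 genes. For the further matricellular genes the count of 2 became 6 with the DESeq2 Wald test and 1 with protein-coding genes only, and lay between 1 and 4 with a mouse left out. For the receptor genes it lay between 1 and 4 with a mouse left out, and for the fibroblast activation genes between 3 and 5. Over all genes, 4342 passed in the edgeR fit, 5693 with DESeq2 and between 1735 and 4169 with a mouse left out (1735 without ABT-263-treated mouse 478, 1824 without DMSO-treated mouse 482). The cause of these changes was not tested.

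The log2 fold change of Tnxb lay between -0.12 and 0.62 with a mouse left out and was reversed without mouse 478. The difference in the log2 ratio of Thbs1 to Thbs2 was 0.63 and ranged from -0.14 to 1.01 with a mouse left out, reversing without mouse 476. That of Thbs2 to Thbs4 ranged from -0.024 to 0.84 and reversed without DMSO-treated mouse 482. That of Sparc to Sparcl1 ranged from -0.0782 to 0.16 and reversed without DMSO-treated mice 482 (-0.0782) and 483 (-0.00554) and without ABT-263-treated mice 476 (-0.0286) and 477 (-0.045). That of Tnc to Tnxb ranged from 1.61 to 3.46. With a mouse left out, the exact test has too few groupings for any ratio to pass, so these fits give values only. No paired analysis was possible because the groups share no replicate numbers. With every library thinned to 20344364 counts, 8 of the 10 genes passed.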

Other observations

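The marker counts given here stand against 11.7% of all genes tested called lower and 12.4% called higher with edgeR. Of 5 skeletal muscle markers, 2 (Tnnt3 and Ttn) passed the edgeR threshold as lower and 0 as higher, with summed levels of 23230.0 to 49570.0 CPM after DMSO and 16170.0 to 24650.0 CPM after ABT-263. Acta1, skeletal α-actin, was at 14390.0 CPM on average after DMSO and at 10690.0 CPM after ABT-263 (log2 fold change -0.43, adjusted p = 0.348). Of 5 keratinocyte markers 0 passed with edgeR, 0 with DESeq2, and 0 had an unadjusted p under 0.05, with log2 fold changes of 0.25 for Krt14 and -0.23 for Krt5. Of 4 pericyte and smooth muscle markers 1 was higher (Mcam, 1.04, adjusted p = 0.0139). The others were at 0.49 for Rgs5, 0.69 for Myh11 and -0.39 for Cspg4 on the log2 scale. Of 4 adipocyte markers 0 passed with edgeR and 1 (Plin1) with DESeq2, although 2 had an unadjusted p under 0.05. The 4 log2 fold changes were 1.85 for Adipoq (adjusted p = 0.111), 1.82 for Plin1, 0.80 for Cidec and -0.23 for Lep.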
